A study of Mus musculus with 26 samples.

Results

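Expression of 41 cell cycle and DNA replication genes was examined in brown adipose tissue of mice, a fat depot that makes heat, across fasting, cold and deletion of Klf15. The genes were taken by symbol from a list of replication factors, E2F factors, mitotic cyclins and kinases, and spindle and checkpoint proteins, with no threshold on a measured value. Values were FPKM, fragments per transcript length and sequencing depth, a scale that allows levels to be compared between genes. A gene was tested when at least 3 of the 26 libraries reached 1 FPKM. Of the 41 genes, 15 met this rule, among 12702 genes tested of 48432 in the table.

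The study asked how brown adipose tissue responds to fasting and cold with and without KLF15, a Krüppel-like transcription factor. FF mice carried floxed Klf15 alleles (KLF15 flox/flox) without Cre. BKO mice (Ucp1-Cre/+;K15F/F) had in addition a Cre under control of the Ucp1 promoter, a promoter of brown adipocytes, so other cells of the depot keep Klf15. All mice were 2 months old. Each genotype was sampled at room temperature fed (3 libraries), at room temperature fasted (3 libraries), after cold challenge (4 libraries) and after cold with fasting (3 libraries). Each library came from its own numbered animal, and the lengths of the fast and of the cold exposure are not given in the sources used here.

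Before S phase, the origin recognition complex, Cdc6 and Cdt1 load the Mcm helicase onto replication origins, and Cdc45 and the Gins complex activate it. Pcna, the sliding clamp, then holds polymerases and DNA ligase on the template while ribonucleotide reductase and thymidylate synthase supply deoxynucleotides. Activator E2F factors drive many of these genes at the start of S phase, and the mitotic cyclins, kinases and spindle proteins follow under a separate late programme. Mature brown adipocytes are largely out of the cell cycle, whereas progenitors, endothelial cells and blood-derived cells of the depot can divide, and several replication proteins also serve DNA repair.

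Klf15 separated the genotypes in every condition, with 9.04 to 30.6 FPKM in the FF libraries and 2.12 to 8.92 FPKM in the BKO libraries. Among 8 brown adipocyte markers, Fabp4, Cidea, Adipoq and Plin1 were at 158 FPKM or more in every library and Elovl3 at 49.1 FPKM or more, while the regulators Ppargc1a and Prdm16 had lowest values of 5.86 and 1.81 FPKM. Ucp1 was listed at 0 in 8 libraries beside a median of 3023 FPKM and was left out. Summed FPKM per library ran from 388107 to 501068, and 11345 to 11868 genes per library were at 1 FPKM or above. The read depth behind the values is unknown, so counting intervals cannot be given. The labels number the libraries, and the numbers fall into 1 to 8 and 15 to 32. The low numbers hold all 3 FF fasted libraries, FF fed replicates 1 and 2 and FF cold replicates 2, 3 and 4, while the high numbers hold the remaining FF libraries and all BKO libraries. In fasted mice, genotype and library number therefore cannot be told apart, nor can cold with fasting and library number in the comparison of the FF cold plus fasted with the FF fasted group. Only the FF fed and FF cold groups hold both low and high numbers. A model term for library number therefore rests on FF fed replicate 3 and FF cold replicate 1 against the other libraries of their groups.

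The genes were low, and they fell by role into a measurable replication set and a mitotic set near the floor. Among the 12 licensing and helicase genes 8 were tested, among the 6 nucleotide supply and fork genes 5, among the 4 E2F factors 1 and among the 2 chromatin maintenance genes 1. None of the 17 mitotic genes was tested. Median levels over the 26 libraries reached 11.84 FPKM for Pcna, 9.69 FPKM for E2f2 and 3.02 FPKM for Mcm7. The highest single value among the 26 untested genes was 1.13 FPKM, for the S and G2 phase cyclin Ccna2 in BKO cold replicate 4, followed by 1.03 FPKM for the spindle checkpoint kinase Bub1b in FF fasted replicate 2. Medians of the 15 tested genes ran from 0.328 FPKM for Cdt1 to that of Pcna, and Mcm5, Mcm10, Cdc6, Gins2 and Tk1 were among the untested replication genes.

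**Figure D1:**
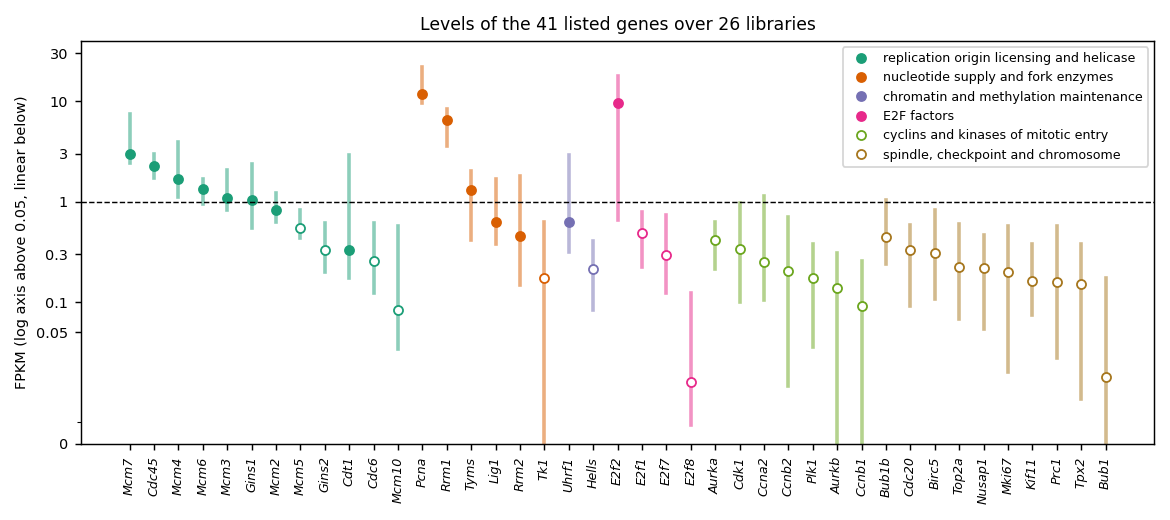
Level of each of the 41 genes, grouped by role, as the median (point) and the range (line) over the 26 libraries in FPKM; the axis is logarithmic above 0.05 FPKM and linear below. Filled points mark the 15 tested genes, and the dashed line is 1 FPKM. Every mitotic gene has its median below that line.

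The promoters of the genes differed in the motifs that their textbook regulators read, and 6 of them are shown because their genes stand for the different behaviours described below. Each is the 250 bases before the first listed RefSeq transcription start of the gene, in build GRCm38.p6. The bases run 5′ to 3′ on the gene's strand, with matches to 3 motifs in capitals. The motifs, searched on both strands, were the E2F consensus (TTTCCCGC, TTTCGCGC, TTTGCCGC or TTTGGCGC), the CCAAT box (CCAAT) and the cell cycle homology region, CHR (TTTGAA). Matches of different motifs or strands can overlap, as they do in Mcm6.
Mcm6, a helicase subunit, chr1:128359706-128359955, minus strand: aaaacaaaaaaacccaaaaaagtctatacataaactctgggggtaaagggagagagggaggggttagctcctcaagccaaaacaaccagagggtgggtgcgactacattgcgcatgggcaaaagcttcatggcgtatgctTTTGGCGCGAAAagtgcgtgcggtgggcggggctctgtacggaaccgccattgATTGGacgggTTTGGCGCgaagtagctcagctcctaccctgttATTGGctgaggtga
Cdt1, the helicase loading factor, chr8:122567765-122568014, plus strand: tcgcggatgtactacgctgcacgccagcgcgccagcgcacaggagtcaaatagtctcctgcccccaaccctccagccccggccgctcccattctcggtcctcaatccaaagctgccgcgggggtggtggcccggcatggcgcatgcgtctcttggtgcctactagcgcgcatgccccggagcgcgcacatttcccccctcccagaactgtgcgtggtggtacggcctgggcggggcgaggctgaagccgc
Tyms, thymidylate synthase, chr5:30073626-30073875, minus strand: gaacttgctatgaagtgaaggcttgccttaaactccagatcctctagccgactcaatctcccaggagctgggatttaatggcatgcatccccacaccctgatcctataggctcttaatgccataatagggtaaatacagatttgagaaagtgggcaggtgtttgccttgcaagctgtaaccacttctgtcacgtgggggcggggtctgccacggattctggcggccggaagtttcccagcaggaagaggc
E2f2, an activator E2F, chr4:136172024-136172273, plus strand: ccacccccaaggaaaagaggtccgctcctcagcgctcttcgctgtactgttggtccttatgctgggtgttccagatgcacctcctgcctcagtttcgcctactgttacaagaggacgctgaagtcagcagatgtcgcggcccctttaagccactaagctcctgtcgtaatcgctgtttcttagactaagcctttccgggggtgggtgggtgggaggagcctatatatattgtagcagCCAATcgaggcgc
Top2a, the topoisomerase that untangles mitotic chromosomes, chr11:99024190-99024439, minus strand: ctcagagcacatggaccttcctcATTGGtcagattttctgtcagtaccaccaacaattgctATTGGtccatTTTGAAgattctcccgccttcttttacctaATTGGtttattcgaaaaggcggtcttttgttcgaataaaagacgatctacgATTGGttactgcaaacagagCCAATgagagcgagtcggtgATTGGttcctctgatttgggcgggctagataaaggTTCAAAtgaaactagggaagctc
Ccnb2, a mitotic cyclin, chr9:70421555-70421804, minus strand: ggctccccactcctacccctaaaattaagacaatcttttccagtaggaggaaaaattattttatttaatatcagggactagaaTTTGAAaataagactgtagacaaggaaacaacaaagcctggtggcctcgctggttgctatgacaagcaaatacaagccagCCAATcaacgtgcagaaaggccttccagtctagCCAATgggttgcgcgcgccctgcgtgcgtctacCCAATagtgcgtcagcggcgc

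RefSeq promoters were matched for 35 of the 41 genes, and 30 of these had 1 listed start. For genes with more, such as E2f2 and Mcm7 with 2 each, only the first listed start was searched. Mcm6 held 3 E2F consensus matches, the most of any of the 35 genes, and Mcm5 held 2. Mcm7, Cdc6, E2f7, Hells and Cdk1 held 1 each. Cdt1 and Tyms held no match to any of the 3 motifs, and E2f2 held 1 CCAAT box. Top2a held 6 CCAAT boxes and 2 CHR matches, and Ccnb2 held 3 CCAAT boxes and 1 CHR match. The E2F consensus lay in 6 of 21 promoters of the replication, E2F and chromatin genes (28.6%), in 1 of 14 promoters of mitotic genes (7.14%) and in 517 of 27025 promoters of all genes (1.91%). CCAAT boxes lay in 12 of 14 mitotic promoters (85.7%), 14 of 21 of the others (66.7%) and 34.5% of all. The CHR lay in 6 of 14 mitotic promoters (42.9%), 3 of 21 of the others (14.3%) and 16.3% of all. A match describes these letters alone and is not a bound site.

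Fasting at room temperature in FF mice raised 5 of the 8 tested licensing and helicase genes together with Pcna, Lig1 and Rrm2, and lowered Cdc45, Rrm1, Tyms and E2f2. The test was limma on log2(FPKM + 1) over all 8 groups, with Benjamini-Hochberg adjustment over the 12702 genes at 0.05. By this test 8 of the 15 genes were higher and 4 lower, beside 37.5% of all tested genes called (18.1% higher and 19.4% lower). Rrm2 and Cdt1 reached 1 FPKM in 3 libraries each and Lig1 in 6, all of them fasted, so those genes entered the test through the group in which they were high and the count over the 15 carries no weight of its own. In whole tissue, a change in the share of a cell type and a change of RNA per cell cannot be told apart.

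Among the helicase and licensing genes, Mcm7 stood at 3.68, 4.60 and 2.94 FPKM in the 3 FF fed libraries and at 7.28, 4.65 and 7.42 FPKM in the FF fasted libraries. Mcm4, another subunit of the same ring, stood at 2.20, 2.02 and 1.66 FPKM fed and at 3.92, 2.29 and 3.85 FPKM fasted. For both genes every fasted library lay above every fed library, although FF fasted replicate 2 came close to the highest fed value. The log2 differences were 0.64 ± 0.14 (SE, limma adjusted p = 0.000742) for Mcm7 and 0.54 ± 0.14 (adjusted p = 0.00428) for Mcm4. All differences here and below are on the log2(FPKM + 1) scale, which understates the change of genes near or below 1 FPKM. Mcm7 shares 321 of its 4426 exon bases with Ap4m1 (median 8.2 FPKM) and 64 with Cops6 (median 78.35 FPKM) on the opposite strand. Also on the opposite strand, Cdc45 shares 209 of 3506 with Ufd1 (median 30.5 FPKM) and Lig1 247 of 4268 with Zswim9 (median 1.63 FPKM). The counting is not stated to use strand, so reads of these pairs cannot be told apart where they overlap.

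Cdt1, which loads the helicase, was at 0.367, 0.404 and 0.362 FPKM in the FF fed libraries and at 1.43, 0.868 and 2.91 FPKM in the FF fasted libraries. The groups did not overlap, with FF fasted replicate 3 the highest of all 26 libraries, and the log2 difference was 0.92 ± 0.18 (limma adjusted p = 0.000356). Cdt1 overlaps the gene Gm20388 on the same strand, with 0 of its 3140 exon bases shared. Gm20388 had a median of 0.0175 FPKM and a highest value of 24.8 FPKM, and its part in the Cdt1 values was not tested. Mcm3 rose by 0.37 ± 0.11 (adjusted p = 0.00932), from 0.871, 1.03 and 1.32 FPKM fed to 1.37, 1.62 and 2.07 FPKM fasted. Mcm2 rose by 0.28 ± 0.09 (adjusted p = 0.0211), from 0.806, 0.733 and 0.715 FPKM to 1.13, 1.03 and 1.21 FPKM. Neither gene overlapped between the groups, but the Mcm3 call was lost without FF fed replicate 1 or FF fasted replicate 3 (adjusted p up to 0.0745) and the Mcm2 call without FF fed replicate 2 or 3 or FF fasted replicate 3 (up to 0.0754).

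The helicase genes did not all go the same way. Mcm6, whose promoter held the most E2F matches, was at 1.36, 1.48 and 1.37 FPKM fed and at 0.944, 1.49 and 1.21 FPKM fasted, overlapping groups with a difference of -0.13 ± 0.10 (limma adjusted p = 0.324). Cdc45, which joins the Mcm ring to form the active helicase, was at 2.75, 2.53 and 2.52 FPKM fed and at 2.27, 2.14 and 1.74 FPKM fasted. It fell by 0.24 ± 0.09 (adjusted p = 0.0393), a call that was lost without any single FF fed library or FF fasted replicate 3 (up to 0.202). Gins1, a subunit of the Gins complex, did not pass the test, with a difference of 0.34 ± 0.14 (adjusted p = 0.0634). Mcm5 was below 1 FPKM in every library (0.432 to 0.833 FPKM) and was not tested, nor was Cdc6 (0.123 to 0.619 FPKM).

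At the replication fork, Pcna and Lig1 moved together in fasted FF mice. Pcna was at 11.8, 13.2 and 10.2 FPKM in the FF fed libraries (11.8 ± 1.49, SD, n = 3) and at 21.7, 19.6 and 20.4 FPKM in the FF fasted libraries (20.6 ± 1.05). Lig1, the ligase that seals Okazaki fragments, was at 0.808, 0.936 and 0.736 FPKM fed and at 1.32, 1.68 and 1.61 FPKM fasted. The 3 fasted libraries held the 3 highest values of all 26 libraries for both genes. The log2 differences were 0.76 ± 0.10 (limma adjusted p = 3.6e-06) for Pcna and 0.47 ± 0.09 (adjusted p = 0.000227) for Lig1. Reads of Pcna can be shared with its near-identical pseudogene Pcna-ps2, which was at 4.61 to 7.05 FPKM fed and 8.90 to 10.8 FPKM fasted and differed by 0.68 ± 0.12 (adjusted p = 9.35e-05), so the level of Pcna itself is uncertain.

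Among the deoxynucleotide synthesis genes, Rrm2 was higher and Rrm1 and Tyms were lower in fasted FF mice. Rrm2, the S phase-restricted subunit of ribonucleotide reductase, was at 0.502, 0.624 and 0.462 FPKM in FF fed mice and at 1.69, 1.02 and 1.82 FPKM in FF fasted mice, a difference of 0.70 ± 0.15 (limma adjusted p = 0.00113). Rrm1, the large subunit of the same enzyme, was at 6.26, 6.85 and 6.50 FPKM fed and at 5.79, 4.86 and 3.57 FPKM fasted, a fall of 0.41 ± 0.13 (adjusted p = 0.0198). Tyms, which makes thymidylate, was at 0.816, 1.00 and 1.12 FPKM fed and at 0.498, 0.413 and 0.411 FPKM fasted, a fall of 0.46 ± 0.10 (adjusted p = 0.00153). The groups did not overlap for any of these 3 genes. Rrm2 had entered the test through the fasted libraries, so nothing is read from its lack of overlap or from its contrast with Rrm1 and Tyms. The Rrm1 call was lost without FF fed replicate 2 or FF fasted replicate 3 (adjusted p up to 0.158).

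Uhrf1, which recruits the maintenance methyltransferase to replicated DNA, varied more between animals than between the fed and fasted groups. It was at 1.60, 2.07 and 0.698 FPKM fed and at 2.90, 0.857 and 2.57 FPKM fasted, and the groups overlapped (difference 0.31, limma adjusted p above 0.05). E2f2, the activator E2F on the list that reached testable levels, was at 2.05, 1.18 and 6.04 FPKM fed and at 0.698, 0.861 and 0.656 FPKM fasted. Its fall of 1.05 ± 0.30 (limma adjusted p = 0.00904) rested on FF fed replicate 3, without which adjusted p was 0.0943, although all fasted libraries were below all fed libraries. E2f3, an activator E2F from the wider list, was at 2.28 to 2.83 FPKM in FF fed mice and 2.73 to 3.47 FPKM in FF fasted mice and was not called with fasting (difference 0.22 ± 0.12, limma adjusted p = 0.164).

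FF fed replicate 3 is the only FF fed library with a high library number, and the FF fasted libraries all have low numbers. Within numbers 1 to 8, with 2 fed and 3 fasted libraries, 5 of the 12 calls held. Pcna differed there by 0.67 (limma adjusted p = 0.0044), Cdt1 by 0.91 (0.0368), Rrm2 by 0.67 (0.0223), Lig1 by 0.44 (0.0274) and Tyms by -0.40 (0.0306). Mcm7 missed the threshold there at 0.52 (adjusted p = 0.076) and E2f2 at -0.57 (0.0844), and Mcm4, Mcm3, Mcm2, Rrm1 and Cdc45 were also not called. Cdt1, Rrm2 and Lig1 had entered the test through the fasted libraries, so nothing is read from the number of calls that held.

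**Figure D2:**
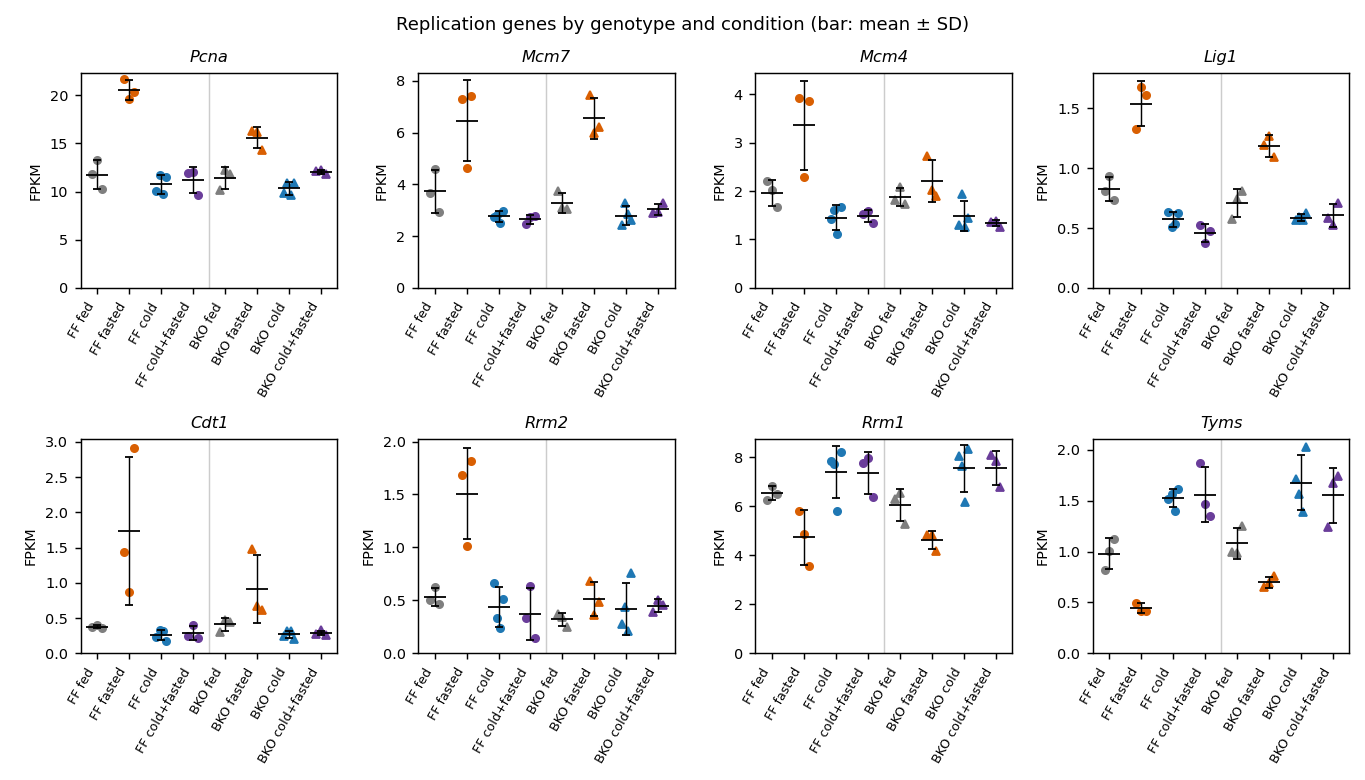
FPKM of 8 replication genes in each library (circles FF, triangles BKO) for the 8 groups, with the group mean and SD as the bar. Pcna, Lig1, Mcm7, Mcm4, Cdt1 and Rrm2 have their highest values in fasted libraries at room temperature, while Rrm1 and Tyms have their lowest there.

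In BKO mice, fasting raised Mcm7, Pcna and Lig1 and lowered E2f2 and Tyms. These 5 of 15 genes passed, 3 higher and 2 lower, beside 27.4% of all tested genes (12.9% higher and 14.6% lower). Lig1 had entered the test through the fasted libraries, so nothing is read from this count. Mcm7 was at 3.73, 3.09 and 3.06 FPKM in the BKO fed libraries and at 7.45, 5.99 and 6.20 FPKM in the BKO fasted libraries, a rise of 0.81 ± 0.14 (limma adjusted p = 0.000104). Pcna was at 10.2, 12.3 and 11.8 FPKM fed and at 16.3, 16.2 and 14.3 FPKM fasted, a rise of 0.42 ± 0.10 (adjusted p = 0.00273). Neither gene overlapped between the groups, and the BKO fasted values of Mcm7 reached those of the FF fasted mice while those of Pcna stayed below them. Pcna-ps2 was at 5.73 to 6.22 FPKM fed and 7.05 to 8.17 FPKM fasted and did not pass the test (difference 0.28 ± 0.12, adjusted p = 0.0765).

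Lig1 was at 0.579, 0.744 and 0.805 FPKM in BKO fed mice and at 1.20, 1.27 and 1.09 FPKM in BKO fasted mice, with no overlap (adjusted p = 0.00428, limma). E2f2 was at 7.22, 3.27 and 2.80 FPKM fed and at 1.57, 0.930 and 1.14 FPKM fasted and fell by 1.22 ± 0.30 (adjusted p = 0.00439). Tyms was at 0.999, 0.990 and 1.25 FPKM fed and at 0.653, 0.686 and 0.756 FPKM fasted, also without overlap. Its fall of 0.29 ± 0.10 (adjusted p = 0.041) was lost when any of the 6 fed or fasted BKO libraries was left out (up to 0.150). Cdt1 was at 0.304, 0.476 and 0.450 FPKM fed and at 1.47, 0.666 and 0.608 FPKM fasted and did not pass (difference 0.42, limma adjusted p = 0.0902), and Rrm1 differed by -0.33 (adjusted p = 0.0749). Rrm2 was at 0.369, 0.339 and 0.252 FPKM fed and at 0.681, 0.362 and 0.484 FPKM fasted, overlapping groups, and was not called.

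The fasting responses of the genotypes were compared directly, gene by gene. No one of the 15 genes passed this interaction test in limma, beside 0.716% of all genes, and 3 were at an unadjusted p under 0.05. These were Mcm2 (BKO response minus FF response -0.38 ± 0.13, adjusted p = 0.204), Pcna (-0.34 ± 0.14, adjusted p = 0.31) and Rrm2 (-0.51 ± 0.22, adjusted p = 0.337). The numbers of genes called in FF and in BKO therefore do not amount to a tested difference between genotypes.

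Comparing BKO with FF mice within each condition gave calls in fasted mice alone, where 2 of the 15 genes were lower and 0 higher beside 8.68% of all genes (4.15% lower and 4.53% higher). Rrm2 was at 0.681, 0.362 and 0.484 FPKM in BKO fasted mice against 1.69, 1.02 and 1.82 FPKM in FF fasted mice, and it was lower by -0.72 ± 0.15 (limma adjusted p = 0.0049). It had reached 1 FPKM in the 3 FF fasted libraries alone and so entered the test through the group in which it is high. Pcna was lower by -0.38 ± 0.10 (adjusted p = 0.0192), with no overlap between the groups. The Pcna call was lost without FF fasted replicate 1 or 3 or BKO fasted replicate 3 (adjusted p up to 0.116), and 5 of the 15 genes were called without FF fasted replicate 2. Both calls were lost when only those 2 groups were fitted (Rrm2 0.103, Pcna 0.133) and when library number was a term of the model (Rrm2 -0.83, adjusted p = 0.0737, Pcna -0.19, adjusted p = 0.589). The remaining comparisons gave 0 calls each: fed mice (0.22% of all genes called, 1 of the 15 at an unadjusted p under 0.05), cold (0.402%, 0 of 15), cold with fasting (0.236%, 0 of 15) and the average over conditions (2.97%, 2 of 15).

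Cold challenge raised E2f2 and Tyms in both genotypes, and the helicase, clamp and ligase genes did not pass the test in either. In FF mice 3 of the 15 genes were called, 2 higher and 1 lower, beside 23.6% of all genes (13.3% higher and 10.3% lower), and with libraries rescaled to equal summed FPKM the split was 2 higher and 3 lower. In BKO mice 2 were higher and 0 lower, beside 16.2% of all genes (9.72% higher and 6.5% lower). These comparisons use the same fed libraries as the fasting comparisons. E2f2 was at 10.6, 10.1, 9.75 and 15.5 FPKM in the FF cold libraries (11.5 ± 2.70, SD, n = 4) against 2.05, 1.18 and 6.04 FPKM fed, a rise of 1.77 ± 0.28 (limma adjusted p = 0.000111). In BKO mice it was at 12.6, 11.6, 9.63 and 13.9 FPKM in the cold against 7.22, 3.27 and 2.80 FPKM fed, a rise of 1.33 ± 0.28 (adjusted p = 0.00231). All 8 cold libraries lay above all 6 fed libraries, and FF cold replicate 4 held the highest cold value. E2f3 went the other way in the cold, at 1.19 to 1.41 FPKM in FF and 1.07 to 1.53 FPKM in BKO mice, and fell by 0.58 ± 0.11 (limma adjusted p = 0.000732) and 0.44 ± 0.11 (adjusted p = 0.00916, lost without BKO fed replicate 1 or 2, up to 0.0674).

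Tyms was at 1.52, 1.57, 1.40 and 1.62 FPKM in the FF cold libraries and at 1.71, 1.57, 1.39 and 2.03 FPKM in the BKO cold libraries. All were above the fed libraries of their genotype, whose highest values were 1.12 and 1.25 FPKM. The rise was 0.36 ± 0.10 in FF mice (limma adjusted p = 0.0109) and 0.36 ± 0.10 in BKO mice (adjusted p = 0.0134). The FF call was lost without FF fed replicate 1 (adjusted p = 0.0775) and the BKO call without BKO cold replicate 4 or BKO fed replicate 1 or 2 (up to 0.0632). Uhrf1 was lower in FF cold mice, at 0.599, 0.312, 0.439 and 0.504 FPKM, by -0.71 ± 0.20 (adjusted p = 0.0113), and this call was lost without FF fed replicate 1 or 2 (up to 0.102).

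Within library numbers 1 to 8, E2f2 rose by 2.28 and Tyms by 0.41 in FF cold mice and both were called, and Uhrf1 differed by -0.996 (limma adjusted p = 0.0505). Within numbers 15 to 32, where FF had 1 fed and 1 cold library, the differences were 0.72 for E2f2 (adjusted p = 0.553), 0.25 for Tyms and -0.09 for Uhrf1, and none was called. The lone libraries of that fit are assumed to vary like the other groups. No gene of the 15 had a cold response that differed between the genotypes, beside 0.00787% of all genes, with 0 at an unadjusted p under 0.05. The same test for cold with fasting gave 0 of 15 beside 0.00787% of all genes, with 1 at an unadjusted p under 0.05.

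Genes of red blood cells rose with E2f2 in the cold. A list of 6 erythroid markers held 5 tested genes, the globins and the erythroid heme enzyme Alas2. All 5 were higher in FF cold mice, beside 13.3% of all genes, and 4 of 5 in BKO cold mice, beside 9.72%. Summed over the 6 genes they gave 120 to 188 FPKM in FF fed mice, 342 to 601 FPKM in FF cold mice, 174 to 471 FPKM in BKO fed mice and 415 to 701 FPKM in BKO cold mice. BKO fed replicate 1 had both the highest erythroid sum (471 FPKM) and the highest E2f2 (7.22 FPKM) of the fed libraries, and FF fed replicate 3 was highest for both among FF fed mice. In FF cold and in BKO cold mice, the highest E2f2 and the highest erythroid sum lay in different libraries. FF cold plus fasted replicate 1 had the highest E2f2 of its group (18.01 FPKM) and the lowest erythroid sum (449.7 FPKM). BKO cold plus fasted replicate 3 was highest for both in its group (15.26 and 996.2 FPKM). In fasted mice the erythroid sum was 226 to 266 FPKM in FF and 158 to 292 FPKM in BKO. With fasting 0 of 5 markers were called in either genotype, beside 37.5% of all genes in FF and 27.4% in BKO mice. Of the 5 differences, 5 were positive in FF mice (median 0.65) and 0 in BKO mice (median -0.38).

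The immunoglobulin heavy chain gene Ighm also rose in FF cold mice, by 2.04 ± 0.31 (limma adjusted p = 5.83e-05), and fell with fasting in FF mice (-0.87, adjusted p = 0.0413, up to 0.181 without any of 5 single libraries) and BKO mice (-1.09, adjusted p = 0.0169, up to 0.139 without BKO fed replicate 1 or BKO fasted replicate 2). It differed by 0.51 in BKO cold mice, at 9.46 to 12.9 FPKM against 3.93 to 12.5 FPKM fed, which did not pass (limma adjusted p = 0.292). The other 10 genes of the lymphocyte list stayed below 1 FPKM in every library, with Rag1 at 0 in 23 libraries and Dntt in 24. Other markers were called in the cold as well, where 13.3% of all genes were higher and 10.3% lower in FF mice and 9.72% and 6.5% in BKO mice. Of 7 endothelial markers 4 were higher and 1 lower in FF cold mice and 3 higher and 0 lower in BKO cold mice, their sum going from 169 to 202 FPKM fed to 203 to 255 FPKM in FF mice and from 191 to 201 FPKM to 227 to 253 FPKM in BKO mice. The endothelial sum was also 196 to 274 FPKM in FF fasted and 223 to 295 FPKM in BKO fasted mice at room temperature. There, 2 endothelial markers were higher and 1 lower than fed in each genotype. Of all genes, 18.1% were higher and 19.4% lower with fasting in FF mice and 12.9% and 14.6% in BKO mice. Of 7 macrophage markers 0 were higher and 4 lower in FF cold mice and 1 lower in BKO cold mice, with sums of 58.2 to 68.8 FPKM fed and 47.8 to 59.0 FPKM cold in FF mice and of 54.2 to 90.1 FPKM and 41.2 to 65.03 FPKM in BKO mice. Of 6 tested adipocyte progenitor markers, 0 were higher and 1 lower in the cold in each genotype, and 1 was higher and 0 lower with fasting. These lists are short, so nothing is read from their counts. The part of blood, endothelial and other cells in the E2f2, Tyms and Uhrf1 values was not tested.

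**Figure D3:**
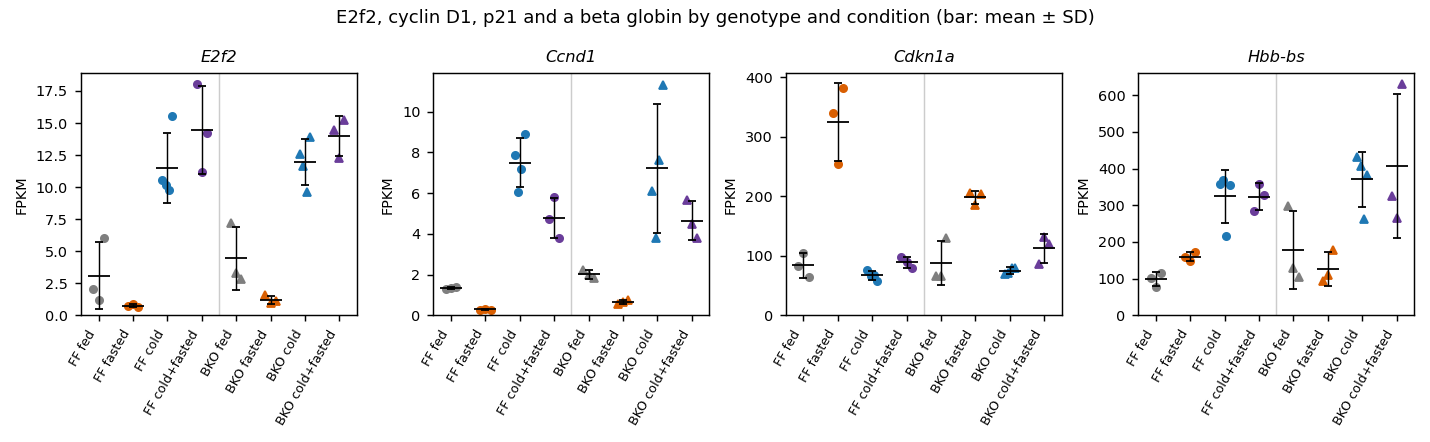
FPKM of E2f2, Ccnd1, Cdkn1a and Hbb-bs in each library (circles FF, triangles BKO) by group, with mean and SD as the bar. E2f2 and Ccnd1 are high in all cold groups and low in fasted groups at room temperature, Cdkn1a is high in the fasted groups, and Hbb-bs is high in the cold groups, higher in FF fasted than in FF fed libraries, and overlapping between BKO fed and fasted libraries.

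Cold with fasting raised E2f2 above fed levels in both genotypes, and no gene of the list was called against cold alone. There, 0 of the 15 genes were called in FF mice by limma (0% of all genes, 0 at an unadjusted p under 0.05) and 0 in BKO mice (0.00787% of all genes, 2 of 15 at an unadjusted p under 0.05). Against fed mice, 4 of 15 were called in FF mice beside 20.5% of all genes (11.5% higher and 8.93% lower), E2f2 and Tyms higher and Uhrf1 and Lig1 lower. The Uhrf1 call was lost without FF fed replicate 1 or 2 or FF cold plus fasted replicate 1 or 3 (limma adjusted p up to 0.155), the Tyms call without FF fed replicate 1 or FF cold plus fasted replicate 1 (up to 0.102) and the Lig1 call without FF fed replicate 2 or FF cold plus fasted replicate 2 (up to 0.0668). All 3 were also lost when only those 2 groups were fitted (Uhrf1 0.0834, Tyms 0.0692, Lig1 0.0514). In BKO mice 1 was called beside 19% of all genes (10% higher and 8.93% lower), E2f2, which was higher by 1.55 ± 0.30 (adjusted p = 0.00128), and with libraries rescaled to equal sums the split was 1 higher and 1 lower. E2f2 was at 18.01, 11.1 and 14.2 FPKM in the FF libraries and at 14.5, 12.3 and 15.3 FPKM in the BKO libraries. All 6 values lay above every fed value. With library number as a term, E2f2 alone held in FF mice (1.66), and within numbers 15 to 32 it differed by 1.11 (adjusted p = 0.1003), with 1 fed library.

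Against fasting at room temperature, mice of both genotypes given cold with fasting had lower Mcm7, Mcm4, Cdt1, Pcna and Lig1 and higher E2f2, Tyms and Rrm1. Of the 8 licensing and helicase genes, 6 were lower and 0 higher in FF mice, and 3 were lower and 1 higher in BKO mice. In FF mice 13 of the 15 genes were called, 3 higher and 10 lower, beside 52% of all genes (26% higher and 25.9% lower). In BKO mice 9 were called, 4 higher and 5 lower, beside 45.1% of all genes (22.9% higher and 22.2% lower), or 3 higher and 6 lower with libraries rescaled to equal sums. Rrm2, Cdt1 and Lig1 entered the test through the fasted libraries, so these counts too carry no weight of their own. The BKO comparison lies within library numbers 15 to 32, whereas in FF mice the library numbers change with the condition. The fasted libraries here are the same as in the comparison with fed mice.

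Mcm7 was at 2.46, 2.74 and 2.77 FPKM in FF mice after cold with fasting and at 2.90, 2.92 and 3.29 FPKM in BKO mice. All 6 were below all 6 fasted libraries at room temperature, whose lowest value was 4.65 FPKM, and the differences were -1.005 ± 0.14 in FF mice (limma adjusted p = 2.63e-06) and -0.90 ± 0.14 in BKO mice (adjusted p = 1.63e-05). Pcna was at 11.9, 12.1 and 9.62 FPKM in FF mice and at 12.1, 12.2 and 11.8 FPKM in BKO mice, lower by -0.83 ± 0.10 (adjusted p = 5.31e-07) and -0.34 ± 0.10 (adjusted p = 0.00701). Lig1, at 0.523, 0.377 and 0.477 FPKM in FF mice and 0.580, 0.524 and 0.712 FPKM in BKO mice, was lower by -0.80 ± 0.09 (adjusted p = 1.91e-07) and -0.45 ± 0.09 (adjusted p = 0.000317). After cold with fasting none of these 3 genes exceeded the highest fed value of its genotype.

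Mcm4 and Cdt1 were also lower in both genotypes. Cdt1 was at 0.251, 0.402 and 0.210 FPKM in FF mice and at 0.272, 0.328 and 0.266 FPKM in BKO mice, and differed by -1.02 ± 0.18 (limma adjusted p = 6.62e-05) and -0.54 ± 0.18 (adjusted p = 0.0173). The BKO calls for Cdt1 and Mcm4 were lost without BKO fasted replicate 1 (adjusted p = 0.138 and 0.0766). In FF mice Rrm2 (-0.87), Uhrf1 (-0.99), Mcm3 (-0.44) and Mcm2 (-0.29) were lower too, as was Gins1 (-0.35, adjusted p = 0.0435), whose groups overlapped and whose call was lost without FF fasted replicate 1 or FF cold plus fasted replicate 2 or 3 (up to 0.318). With library number as a term, the FF calls for Uhrf1 (limma adjusted p = 0.0663), Mcm2 (0.161), Gins1 (0.284) and Rrm1 (0.0598) were lost and the other 9 held. That term rests on FF fed replicate 3 and FF cold replicate 1, so the 9 are not thereby separated from library number.

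E2f2, Tyms and Rrm1 went the other way in both genotypes. E2f2 was higher by 3.13 ± 0.30 in FF mice (limma adjusted p = 3.07e-08) and by 2.77 ± 0.30 in BKO mice (adjusted p = 2.67e-07). Tyms was at 1.87, 1.47 and 1.34 FPKM in FF mice and at 1.24, 1.68 and 1.74 FPKM in BKO mice, higher by 0.82 ± 0.10 (adjusted p = 1.1e-06) and 0.58 ± 0.10 (adjusted p = 0.00011). Rrm1 was at 7.77, 7.96 and 6.36 FPKM in FF mice and at 8.09, 7.83 and 6.77 FPKM in BKO mice, higher by 0.56 ± 0.13 (adjusted p = 0.00154) and 0.61 ± 0.13 (adjusted p = 0.00091). None of the 3 genes overlapped between these groups. In BKO mice Cdc45 was higher as well (0.29 ± 0.09, adjusted p = 0.0112), a call lost without BKO cold plus fasted replicate 1 or BKO fasted replicate 2 (up to 0.0634).

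**Figure D4:**
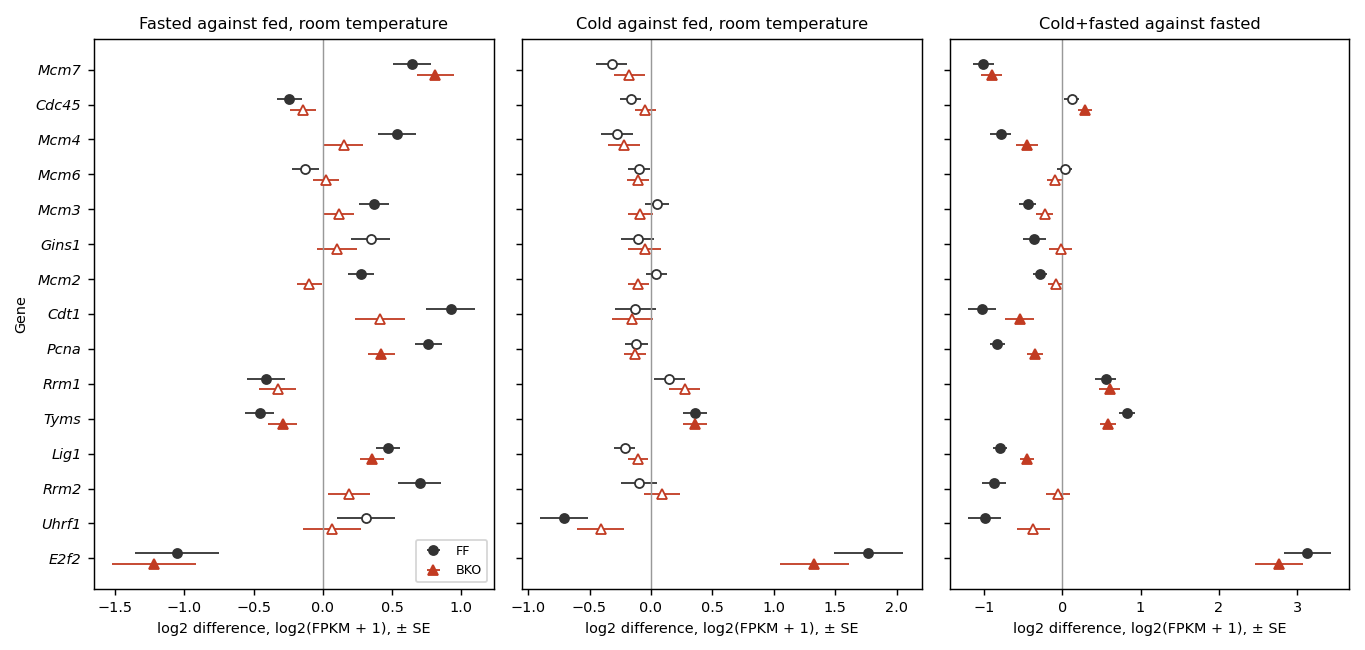
Log2 difference ± SE of the 15 tested genes, on log2(FPKM + 1), for fasted against fed, cold against fed, and cold with fasting against fasted mice (FF black circles, BKO red triangles; filled symbols passed the test). Pcna, Lig1, Mcm7 and Cdt1 lie right of 0 with fasting and left of 0 in the third panel, and E2f2, Tyms and Rrm1 lie on the opposite side.

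The effect of fasting was thus compared between cold and room temperature within each genotype. In FF mice 8 of the 15 genes differed, 2 higher and 6 lower, beside 21.6% of all genes called. Of the 6, Rrm2, Cdt1 and Lig1 had entered the test through the fasted libraries at room temperature, so nothing is read from the count. Pcna (-0.71 ± 0.14, limma adjusted p = 0.000728), Lig1 (-0.58 ± 0.12, 0.0015), Rrm2 (-0.77 ± 0.21, 0.0112), Cdt1 (-0.90 ± 0.25, 0.0117), Mcm7 (-0.68 ± 0.19, 0.0107) and Mcm3 (-0.49 ± 0.15, 0.0201) had a lower fasting response in the cold. E2f2 (1.36 ± 0.42, 0.0219) and Tyms (0.47 ± 0.14, 0.0212) had a higher one. In BKO mice 2 of 15 differed beside 13.1% of all genes, Mcm7 (-0.72 ± 0.19, adjusted p = 0.0125) and E2f2 (1.43 ± 0.42, 0.0253). Rescaling to equal sums gave 1 higher and 2 lower in BKO mice, and quantile normalization 2 higher and 1 lower.

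In FF mice the E2f2 and Tyms calls were lost without FF cold plus fasted replicate 1 or FF fed replicate 3 (limma adjusted p up to 0.0706 and 0.073), the Mcm3 call without FF cold plus fasted replicate 3, FF fed replicate 1 or FF fasted replicate 3 (up to 0.0729), and all but those of Lig1 and Rrm2 with library number as a term. The BKO E2f2 call was lost without BKO cold plus fasted replicate 3, BKO fed replicate 1 or BKO fasted replicate 2 (up to 0.0889).

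The mitotic genes were measured near the floor, so they are given by level and by a fit with no filter and a pseudocount of 0.1 FPKM, chosen after seeing the data. Mki67, the proliferation marker, was at 0.0545 to 0.279 FPKM in FF fed mice, 0.0323 to 0.084 FPKM in FF fasted mice, 0.197 to 0.545 FPKM in FF cold mice and 0.143 to 0.433 FPKM after cold with fasting. In BKO mice it was at 0.0813 to 0.198 FPKM fed, 0.0673 to 0.083 FPKM fasted, 0.163 to 0.578 FPKM in the cold and 0.130 to 0.328 FPKM after cold with fasting. Top2a was at 0.0687 to 0.106 FPKM in FF fasted and 0.220 to 0.467 FPKM in FF cold mice. For both genes all fasted libraries were below all cold libraries, and fed and cold libraries overlapped.

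The sum of the 17 mitotic genes was 3.50 ± 1.13 FPKM (SD, n = 3) in FF fed mice, 4.11 ± 0.456 fasted, 5.73 ± 1.14 in the cold (n = 4) and 5.08 ± 2.09 after cold with fasting. In BKO mice it was 3.00 ± 0.635 fed, 3.29 ± 0.882 fasted, 4.81 ± 2.24 in the cold and 4.57 ± 0.275 after cold with fasting. BKO cold replicate 4 had the highest sum, 8.05 FPKM, and the other 3 BKO cold libraries lay between 2.92 and 4.20 FPKM.

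On that added scale, 1 of 17 mitotic genes was called in FF cold mice, beside 11.1% of 25866 genes, with 4 at an unadjusted p under 0.05. This was Ccnb2, a cyclin of mitotic entry, at 0.0713, 0.212 and 0.0905 FPKM fed and at 0.416, 0.378, 0.318 and 0.696 FPKM in the cold. Its groups did not overlap and it rose by 1.30 ± 0.33 (limma adjusted p = 0.0123), a call lost without FF fed replicate 1 (0.0782). Reads of Ccnb2 can be shared with its pseudogene Ccnb2-ps, so the level of Ccnb2 itself is uncertain. Ccnb2-ps was at 0.2341 to 0.4015 FPKM in FF fed libraries and at 0.4251 to 0.9298 FPKM in FF cold libraries. In BKO cold mice 0 of 17 were called beside 7.23% of all genes, with 3 at an unadjusted p under 0.05. The median difference of the 17 genes in the cold was 0.57 in FF and 0.42 in BKO mice, with 15 of 17 positive in each. In fasted mice it was -0.03 and -0.02, with 8 of 17 positive in each. The 17 genes were measured in the same few libraries and are not independent, so nothing is read from these counts. The median over all 25866 genes was 0, but many of them are too low for the main filter, so it is no comparator.

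Fasted FF mice had 1 mitotic gene higher and 1 lower on that scale, beside 19.5% of all genes. Bub1b rose by 0.83 ± 0.28 (limma adjusted p = 0.0418) and Tpx2, a spindle assembly factor, fell by 0.92 ± 0.31 (adjusted p = 0.0448), both calls being lost without any of several single libraries, up to 0.148 and 0.151. Among the untested replication genes, Mcm10, which acts in helicase activation, was at 0.0655, 0.0831 and 0.229 FPKM in FF fed and at 0.570, 0.322 and 0.562 FPKM in FF fasted mice, a rise of 1.41 ± 0.29 (adjusted p = 0.00124). After cold with fasting Mcm10 was at 0.0515 to 0.107 FPKM, lower than fasted by -1.70 ± 0.29 (adjusted p = 0.000113).

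In that comparison, which called 28.6% of all genes, Mki67 (1.25 ± 0.40, limma adjusted p = 0.0224), Top2a (1.28 ± 0.36, 0.0104), Aurkb, a kinase of chromosome segregation (1.24 ± 0.35, 0.00998), and Tpx2 (1.14 ± 0.31, 0.00845) were higher in FF mice and Bub1b was lower (-1.01 ± 0.28, 0.00916). The Mki67, Top2a and Tpx2 calls were lost without FF cold plus fasted replicate 2, and the Mki67 call also without FF cold plus fasted replicate 1 or FF fasted replicate 3 (up to 0.109). In BKO mice 1 of 17 was called beside 23.3% of all genes, Ccnb2 (1.22 ± 0.35, adjusted p = 0.0136), lost without BKO fasted replicate 3 (0.0919). The pseudogene Ccnb2-ps was at 0.1345 to 0.3056 FPKM in BKO fasted libraries and at 0.473 to 0.8229 FPKM in BKO cold plus fasted libraries. The salvage enzyme thymidine kinase, Tk1, was higher in FF mice (2.06 ± 0.47, adjusted p = 0.00193) and in BKO mice (1.72 ± 0.47, adjusted p = 0.00983, lost without BKO fasted replicate 2). Its levels stayed at 0.631 FPKM or below in all 26 libraries and it was listed at 0 in 4 of them.

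**Figure D5:**
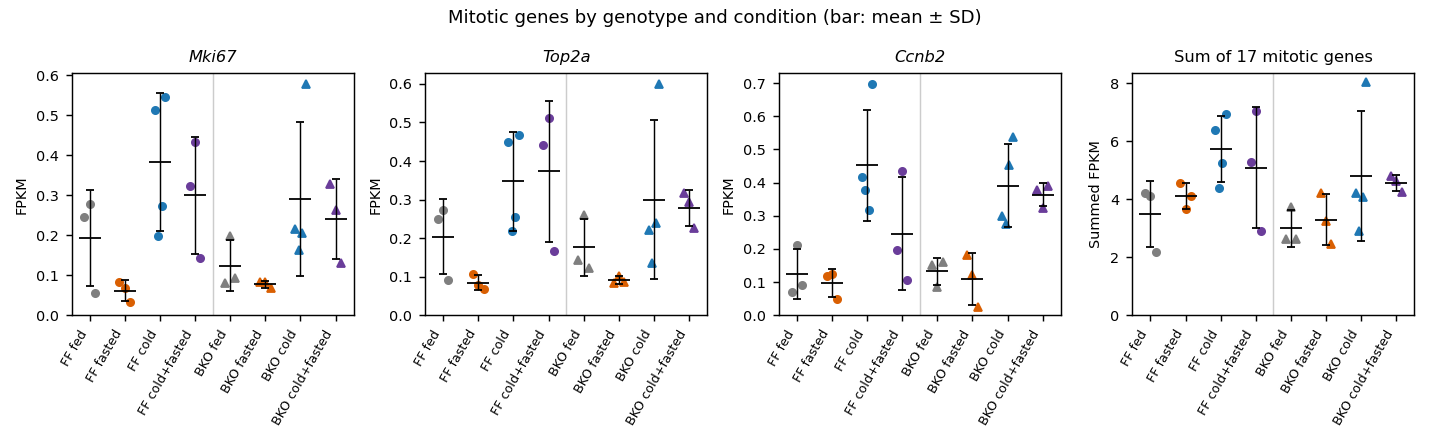
FPKM of Mki67, Top2a and Ccnb2 and the sum of the 17 mitotic genes in each library (circles FF, triangles BKO) by group, with mean and SD as the bar. Fasted libraries are low for Mki67 and Top2a, and BKO cold replicate 4 is the highest BKO cold library in all 4 panels.

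The remaining fixed genes of mitosis and of the E2F family were low throughout. Cdk1, the mitotic kinase, ranged from 0.0993 to 0.972 FPKM, Ccnb1, its cyclin, from 0 to 0.256 FPKM, Birc5, which protects dividing cells, from 0.108 to 0.820 FPKM and Plk1, a mitotic kinase, from 0.0436 to 0.378 FPKM. E2f1, another activator E2F, ranged from 0.224 to 0.794 FPKM, and the repressor E2f8 from 0.00845 to 0.124 FPKM. None of these 6 genes was called on the added scale except E2f1, which was higher after cold with fasting than after fasting in FF mice (0.72 ± 0.26, limma adjusted p = 0.0428) and BKO mice (0.97 ± 0.26, adjusted p = 0.00912). The FF call was lost without any of 5 single libraries (up to 0.165).

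Among genes that control entry into S phase, Ccnd1 fell with fasting and rose in the cold, and Cdkn1a rose with fasting. Ccnd1, the cyclin that opens the G1 to S transition with Cdk4, was at 1.28, 1.32 and 1.39 FPKM in FF fed mice, at 0.242, 0.323 and 0.279 FPKM fasted and at 7.90, 6.04, 7.19 and 8.90 FPKM in the cold. In BKO mice it was at 2.25, 1.97 and 1.83 FPKM fed, at 0.551, 0.638 and 0.745 FPKM fasted and at 6.12, 3.78, 7.61 and 11.3 FPKM in the cold. Fasted, fed and cold libraries did not overlap within either genotype. Ccnd1 fell with fasting by 0.86 ± 0.21 in FF mice (limma adjusted p = 0.00284) and 0.87 ± 0.21 in BKO mice (adjusted p = 0.00358), and rose in the cold by 1.86 ± 0.20 (adjusted p = 9.62e-07) and 1.36 ± 0.20 (adjusted p = 6.18e-05). Ccnd2, the related D-type cyclin, was not called in any of these comparisons.

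Cdkn1a, the p21 inhibitor of cyclin-dependent kinases that also binds Pcna, was at 82.7, 105 and 63.9 FPKM in FF fed mice and at 340, 254 and 381 FPKM in FF fasted mice. In BKO mice it was at 66.0, 65.7 and 130 FPKM fed and at 205, 186 and 204 FPKM fasted. The groups did not overlap in either genotype, and the rises were 1.95 ± 0.21 (limma adjusted p = 3.71e-07) and 1.25 ± 0.21 (adjusted p = 0.000129). Cdkn1a was not called in the cold in either genotype. Pcna, Lig1 and Mcm7 were higher in the same fasted groups.

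The wider lists of the pathway, drawn up with results of these data known, were mixed. Of all tested genes 37.5% were called with fasting in FF and 27.4% in BKO mice, and 23.6% and 16.2% in the cold, and the counts below are to be read beside these shares. Of 12 tested G1 cyclins and kinases of 13 listed, 3 were higher and 1 lower with fasting in each genotype, and 2 were higher and 3 lower in FF cold and 1 higher and 2 lower in BKO cold mice. Cdk4 rose with fasting by 0.34 ± 0.11 in FF mice (limma adjusted p = 0.0161, lost without FF fasted replicate 3, 0.0873) and by 0.53 ± 0.11 in BKO mice (adjusted p = 0.000923). Of 22 tested inhibitors and repressors of 24 listed, 6 were higher and 5 lower with fasting in FF mice and 5 and 5 in BKO mice. Gadd45b, a stress-induced growth arrest gene, rose by 2.04 ± 0.37 (adjusted p = 0.000158) and 1.73 ± 0.37 (adjusted p = 0.0012), while E2f6, a repressor E2F, fell by 0.72 ± 0.10 (adjusted p = 4.9e-06) and 0.43 ± 0.10 (adjusted p = 0.00158).

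Of 25 tested genes of 36 listed for other replication factors, 5 were higher and 5 lower with fasting in FF mice and 2 and 3 in BKO mice. Rpa2, a subunit of the single-strand binding protein, rose in FF fasted mice by 0.66 ± 0.15 (limma adjusted p = 0.00141), while Dut, which removes dUTP, fell by 0.80 ± 0.16 (adjusted p = 0.000324) and Rfc2, a clamp loader subunit, fell by 0.39 ± 0.07 (adjusted p = 0.000259). In the cold 4 were lower in FF mice and 3 in BKO mice, and 0 were higher in either. Of 12 tested genes of 38 listed for other mitotic functions, 0 were higher and 1 lower in FF fasted mice, 1 and 0 in BKO fasted mice, 1 and 1 in FF cold mice, and 0 and 0 in BKO cold mice by limma, with 0 of these 12 at an unadjusted p under 0.05 in the last.

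In the fasted BKO against FF comparison, Cdkn1a was lower by -0.69 ± 0.21 (limma adjusted p = 0.0453), a call lost without any of 16 single libraries (up to 0.196). Rbl2, a pocket protein that represses E2F targets in quiescent cells, was lower by -0.78 ± 0.12 (adjusted p = 0.000347), and Rpa1, the large subunit of the single-strand binding protein, by -0.54 ± 0.11 (adjusted p = 0.00362). With library number as a term Rpa1 was no longer called, and in these groups genotype and library number cannot be told apart.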

How the data were processed

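RNA from brown adipose tissue of 26 mice was sequenced by the submitters. The values deposited by the authors are FPKM per gene and library. The submitters' processing notes name Cufflinks, Cuffdiff, STAR and build mm10, and counts and read depth are not given there. A script took the 41 genes by symbol. Genes with at least 1 FPKM in 3 libraries (12702 genes) were tested with limma 3.58.1 in R 4.3.3 on log2(FPKM + 1), with a mean per group, an intensity trend, two-sided tests and Benjamini-Hochberg adjustment within a comparison at 0.05. Another 33 genes, none of them on the list, held 0 in some libraries and at least 100 FPKM in others and were left out. The scripts were tested on simulated data. The level of 1 erythroid marker is not reported here.

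The genes, the wider lists and the tests were chosen with earlier results of these data known. Genes named with values were the fixed names (Mki67, Top2a, Pcna, Mcm2, Mcm5, Mcm6, Rrm2, Tyms, Ccnb1, Cdk1, Birc5, Plk1, E2f1, E2f8, Cdc6, Cdkn1a, Ccnd1, Ccnd2), the 4 listed genes with the smallest adjusted p per direction and comparison, and up to 4 per wider list; Klf15 checked the genotype. Other genes named with values were chosen after their values were seen. Gene models and overlaps came from GENCODE (build GRCm38), and promoters from RefSeq (GRCm38.p6). Alternatives were other filters, pseudocounts, scalings, library number as a term or as separate sets, array weights, only the groups compared, and each library left out.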

Additional observations from a re-analysis of the deposited data

Results flagged for a closer look

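Of 82 groups of 4 values checked for a value standing apart from the other 3, 6 gave one, where chance gives about 1 in 20. These were Cdc45 at 2.06 FPKM in FF cold replicate 3, E2f2 at 15.5 FPKM in FF cold replicate 4, Mcm5 at 0.628 FPKM in BKO cold replicate 2, and Mki67 at 0.578 FPKM, Prc1 at 0.569 FPKM and Mcm10 at 0.116 FPKM in BKO cold replicate 4. The fasting response differed between cold and room temperature by limma for 8 genes in FF mice, on the log2(FPKM + 1) scale by 1.36 for E2f2, 0.469 for Tyms, -0.582 for Lig1, -0.708 for Pcna, -0.774 for Rrm2, -0.895 for Cdt1, -0.488 for Mcm3 and -0.684 for Mcm7. In BKO mice it differed for 2 genes, by 1.43 for E2f2 and -0.721 for Mcm7.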

How the results depend on the processing

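No call on a listed gene changed direction under any alternative. No paired analysis was possible because the labels give each library its own animal number and no replicate number shared across groups. Counts of listed genes called moved as follows, and they depend on how many listed genes a setting leaves. Of the listed genes only Pcna, E2f2 and Rrm1 average at least 5 FPKM. All 30 calls on these genes and Klf15 held with that filter. The fits with no filter cover all 41 listed genes instead of 15. With genes averaging at least 5 FPKM there were 3 in FF fasted, 2 in BKO fasted, 1 in FF cold, 1 in BKO cold and 1 in FF cold plus fasted against fed, 3 in each genotype for cold plus fasted against fasted, 1 for fasted BKO against FF, and 2 (FF) and 1 (BKO) for the fasting response in the cold minus room temperature. With no filter there were 5 for FF cold, and 20 (FF) and 15 (BKO) for cold plus fasted against fasted, or 20 and 14 with the 0.1 pseudocount added after seeing the data. Fitting only the groups compared gave 5 (FF fasted), 1 (FF cold plus fasted against fed) and 0 (fasted BKO against FF). Library number as a term gave 1, 0 and 2 for FF cold plus fasted against fed, fasted BKO against FF, and the FF fasting response in the cold minus room temperature. Numbers 1 to 8 alone gave 5 for FF fasted, and numbers 15 to 32 alone 0 for FF cold and 0 for FF cold plus fasted. Rescaling to equal sums gave 5 for FF cold and 2 for BKO cold plus fasted against fed, quantile normalization 4 for the latter, and array weights 8 for FF cold, 4 for BKO cold plus fasted, 1 for fed BKO against FF, 3 for the average genotype difference and 4 for the BKO fasting response in the cold minus room temperature. Rescaling shifted the median of all genes by -0.114 (BKO cold plus fasted against fed), -0.108 (FF cold plus fasted against fasted) and -0.126 (BKO).

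Leaving out single libraries gave 9 to 13 for FF fasted, 4 to 7 for BKO fasted, 1 to 4 for FF cold, 1 to 2 for BKO cold, 2 to 5 (FF) and 1 to 2 (BKO) for cold plus fasted against fed, 12 to 13 (FF) and 7 to 9 (BKO) for cold plus fasted against fasted, 1 to 5 for fasted BKO against FF, 0 to 2 for the average, 6 to 10 (FF) and 1 to 3 (BKO) for the fasting response in the cold minus room temperature, and 0 to 0 elsewhere.

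The read depth is unknown, so the precision of values below 1 FPKM, which hold for all 17 mitotic genes in nearly every library, cannot be given. The causes of these shifts were not tested.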
